A study of Mus musculus with 24 samples.

Results

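The genes described here are 9 activity-induced synaptic effector genes of the mouse: Arc, Npas4, Homer1, Nptx2, Nptx1, Inhba, Plk2, Rheb and Rgs2. They were chosen by name, with earlier results of these data known, and matched by Ensembl gene identifier to the rows of the count table. All 9 were found among 18647 genes and passed the filter on low counts that left 18153 genes for testing. They were measured by mRNA sequencing of the hippocampal CA1 subfield of adult C57Bl/6N mice, at least 60 days old, after status epilepticus (SE), a prolonged seizure, with SE groups at 6, 12, 24, 36 and at 72 h and non-SE control groups (Ctr) at 12, 36 and 72 h. Every animal had received scopolamine methyl nitrate at 1 mg/kg, which blocks peripheral muscarinic receptors, 20 min before pilocarpine, a muscarinic agonist, was due. SE animals were given pilocarpine at 335 mg/kg and control animals saline in its place. The anticonvulsant diazepam (4 mg/kg) followed 40 min after SE onset, and controls were handled in the same way. The model is thus pilocarpine with a fixed dose of diazepam in animals that did develop SE, and the control groups carry the scopolamine and diazepam too. CA1 was microdissected from brain slices, so each library is bulk tissue. Each of the 8 groups held 3 libraries, 24 in all. The labels do not say that each library is a separate animal, so the p-values measure the spread between these libraries.

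Strong synaptic activity switches on genes in neurons in waves. Calcium entry activates kinases and transcription factors already present in the cell, such as CREB and serum response factor, and these induce a first set of transcription factors and a set of effectors that act at the synapse itself. Many of these effectors are known to weaken or restrain excitatory synapses after high activity, whereas others recruit AMPA receptors, act as secreted signals or modify signalling downstream of receptors. In the hippocampus they are widely used as markers of recently active neurons.

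Because members that are induced together may share short promoter motifs, the 250 bases before the annotated start of each gene were read from GRCm39 at the canonical transcript start of GENCODE M39. Letters were searched on both strands in the window from 250 bases before to 50 bases after the start. The core of the cAMP response element (CRE), TGACG, here called the partial site and contained in the full CRE TGACGTCA, occurred in 6 of 9 members and in 26% of 18552 promoters of the table's genes. The members with it were Homer1, Nptx2, Nptx1, Plk2, Rheb and Rgs2. In the 250 bases before the start alone it occurred in 5 of 9 members and in 20.7% of promoters. The full CRE occurred in 0 of 9 members and in 2.71% of promoters, the AP-1 site TGANTCA in 1 member, Homer1, and in 6.01% of promoters, and the CArG box of serum response factor in 0 of 9 members and in 1.41% of promoters. A match of these letters is a description of the sequence, and a window without them says nothing about the factor. The 2 sequences shown are Homer1, the single member with an AP-1 match, and Rgs2, with 2 partial sites. They are written 5′ to 3′ on the strand of the gene with the matched letters in capitals (CGTCA is the partial site on the other strand). Their GRCm39 positions are chr13:93439921-93440170 (plus strand) and chr1:143879900-143880149 (minus strand).
Homer1: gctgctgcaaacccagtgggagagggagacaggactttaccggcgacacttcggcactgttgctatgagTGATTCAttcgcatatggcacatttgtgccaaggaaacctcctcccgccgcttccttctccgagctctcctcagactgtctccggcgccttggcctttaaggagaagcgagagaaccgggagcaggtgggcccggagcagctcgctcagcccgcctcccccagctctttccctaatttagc
Rgs2: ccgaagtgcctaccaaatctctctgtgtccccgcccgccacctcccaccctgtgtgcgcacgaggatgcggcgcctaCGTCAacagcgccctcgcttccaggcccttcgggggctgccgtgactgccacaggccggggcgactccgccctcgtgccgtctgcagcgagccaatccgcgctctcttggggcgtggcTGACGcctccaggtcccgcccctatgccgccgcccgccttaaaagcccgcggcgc
The AP-1 letters of Homer1 began 181 bases before the start. The partial sites of Rgs2 began 173 and 55 bases before its start. Homer1 and Inhba have annotated starts upstream of the canonical one, so other promoters of these genes were not covered.

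Library totals ran from 2663936 to 30133731 counts, with a median of 13521590, and every member had counts in every library. The control group at 72 h was the shallowest, with totals of 2663936 to 11680209 (median 5793721), against 10088496 to 20278630 (median 15685996) in SE 72 h. Levels are given as CPM, counts relative to the library total after scaling with TMM factors, and the values of the 3 libraries of a group are listed as replicates 1, 2 and 3. Some libraries stood apart. The summed level of 6 sensory ganglion markers (Calca, Scn10a, Prph, Isl1, Trpv1 and Avil), which CA1 tissue should hold little of, was 1326 CPM in Ctr 72 h replicate 2. It was over 100 CPM also in SE 6 h replicate 3 (247), SE 12 h replicate 1 (485), SE 36 h replicate 3 (642), SE 72 h replicate 1 (729) and SE 72 h replicate 2 (391). Calls of the 9 genes against controls that changed without these 6 libraries are given with both values. Without them SE 72 h is left with replicate 3 alone, the highest SE 72 h library for 7 of 9 members, whose spread is then assumed to be that of the other groups. The numbers that the sample descriptions carry fall into the ranges 92 to 104, 109 to 122 and 162 to 169, and the first range holds SE libraries of all 5 times but no control. All 3 libraries of SE 24 h lie in that range, so the fit with the range as a factor separates group and range at 24 h only through the other SE groups. All 3 Ctr 72 h libraries lie in the range 162 to 169, which holds no SE 72 h library. At 72 h SE and control thus share no range, and that fit separates group and range only through other groups. The same holds for differences of the SE effect that involve 72 h. Whether the ranges mark a batch is not stated in the labels.

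SE was followed by a rise of most of these genes that lasted through 24 h, then by a return toward or below control levels. In each of the first 3 SE groups (6 h, 12 h, 24 h) 7 of the 9 genes were higher than in controls (Arc, Npas4, Homer1, Nptx2, Inhba, Rheb and Rgs2). At 36 h only Nptx2 and Inhba passed the test defined below as higher. All SE libraries also lay above all Ctr 36 h libraries for Arc, Rheb and Rgs2, and below them for Nptx1 and Plk2. At 72 h Arc passed as lower and no gene passed as higher. Nptx2 and Inhba, with log2 fold changes of 1.42 and 1.55, and Npas4, with -2.01, did not pass at 72 h. Gene positions given with each gene are those of GENCODE M39 on GRCm39, and all 9 genes are protein-coding. The largest changes were those of Inhba, 75.2-fold at 12 h, and Nptx2, 35.1-fold at 12 h, whereas Plk2 and Nptx1 passed the test at no time. A gene counted as changed if its p, from the quasi-likelihood test of edgeR and adjusted by Benjamini and Hochberg's method across 18153 genes, did not exceed 0.05, and its log2 fold change (log2FC) was 0.66 or more in size. SE 6 h and SE 24 h, which have no control group of their own, were compared with the mean of the 3 control groups, so these comparisons share control libraries with each other and with the rest. Of all genes tested, in the order of the 5 times, 15.8%, 13.9%, 15%, 12.7% and 15.2% were called higher and 6.2%, 11.4%, 9.24%, 8.95% and 4.15% lower. Every SE library lay above every control library of the comparison for 6, 7, 5, 5 and 0 members, beside 12.9%, 24.5%, 13.6%, 25.8% and 19.4% of all genes. Every SE library lay below them for 0, 0, 0, 2 and 2 members, beside 9.27%, 23.2%, 10%, 26.2% and 13.4%. The median log2FC over the 9 members was 1.79, 1.92, 2.41, 0.57 and -0.15 at the 5 times, beside 0.06, 0.01, 0.04, 0.00 and 0.10 over all genes tested. Because the members were chosen with earlier results of these data known, these counts and medians beside all genes are a description.

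**Figure D1:**
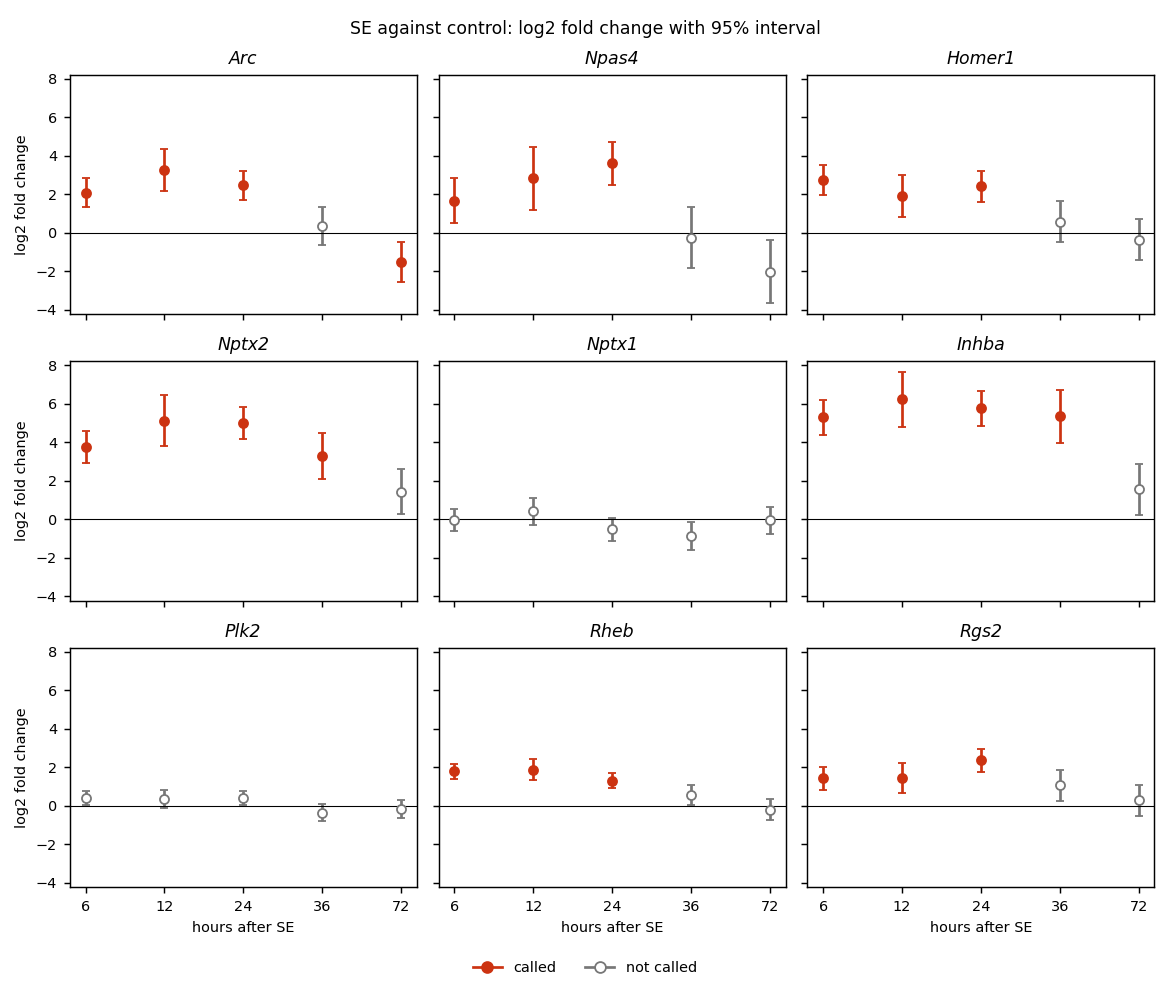
Log2 fold change of each of the 9 genes between SE and control libraries (y axis) against hours after SE (x axis); bars are 95% intervals, filled red points passed the test and open grey points did not. Inhba and Nptx2 have the highest points at 12 and 24 h, Arc lies below 0 at 72 h, and the points of Nptx1 and Plk2 stay within 1 of 0 at all times.

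Npas4 encodes a transcription factor of the bHLH-PAS family that neurons induce in response to calcium entry (ENSMUSG00000045903, chromosome 19, 5034382 to 5040344, minus strand). Its level in the controls was 20.3, 16.2 and 16.2 CPM in Ctr 12 h, 43.4, 24.2 and 11.2 in Ctr 36 h and 64.5, 37.3 and 53.2 in Ctr 72 h. In SE libraries it stood at 31.8, 49.9 and 189 CPM (6 h), 61.5, 93.9 and 220.4 (12 h), 158, 49.7 and 830.5 (24 h), 13.8, 19.7 and 32.1 (36 h) and 9.47, 6.39 and 21.7 CPM (72 h). The 3 SE 12 h libraries lay above all Ctr 12 h libraries, whereas at 6 h replicates 1 and 2 and at 24 h replicate 2 overlapped the controls, and replicate 3 stood far above its group at both times. Npas4 rose with a log2FC (± s.e.) of 1.68 ± 0.59 (edgeR adjusted p = 0.0295) at 6 h, 2.82 ± 0.83 (edgeR adjusted p = 0.0111) at 12 h and 3.61 ± 0.58 (edgeR adjusted p = 4.98e-05) at 24 h. The rise at 6 h rested on SE 6 h replicate 3, without which the log2FC was 0.51 (edgeR adjusted p = 0.602). Without Ctr 36 h replicate 3 it was 1.55 (edgeR adjusted p = 0.0504), and the call at 6 h was lost also with limma-voom and with the range of label numbers as a factor. The call at 12 h was lost without SE 12 h replicate 3, at 2.15 (edgeR adjusted p = 0.0621), and with the label range as a factor (edgeR adjusted p = 0.105). At 24 h the log2FC was 1.85 (edgeR adjusted p = 0.0139) without SE 24 h replicate 3 and 2.57 (edgeR adjusted p = 1.08e-05) without Ctr 72 h replicate 2. At 36 h it was -0.25 ± 0.80 (edgeR adjusted p = 0.848). At 72 h all 3 SE libraries were below all controls, and the log2FC of -2.01 ± 0.84 (edgeR adjusted p = 0.0795) had a 95% interval of -3.65 to -0.37 and did not pass the test. Without Ctr 72 h replicate 2 it was -2.31 (edgeR adjusted p = 0.00352), past the threshold.

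Arc encodes a cytoskeleton-associated protein that drives the removal of AMPA receptors from synapses (ENSMUSG00000022602, chromosome 15, 74540932 to 74544419, minus strand). In the controls its level was 109.6, 88.1 and 106 CPM in Ctr 12 h, 298, 251 and 209.6 in Ctr 36 h and 358, 180.1 and 195 in Ctr 72 h, so that Ctr 12 h was the lowest control group without overlap. The SE libraries had 481, 691 and 1143 CPM (6 h), 635, 785 and 1486 (12 h), 567, 344 and 2082 (24 h), 305, 300.3 and 364 (36 h) and 40.8, 69.9 and 144 CPM (72 h). All SE libraries at 6 and 12 h lay above the controls of their comparison, replicate 2 of SE 24 h did not, and all SE 72 h libraries lay below Ctr 72 h. Arc rose by a log2FC of 2.08 ± 0.38 (edgeR adjusted p = 0.00026) at 6 h, 3.24 ± 0.55 (edgeR adjusted p = 0.000148) at 12 h and 2.46 ± 0.38 (edgeR adjusted p = 3.41e-05) at 24 h. Replicate 3 carried much of the rise at 24 h, and without it the log2FC was 1.31 (edgeR adjusted p = 0.00581). At 36 h all SE libraries were above all Ctr 36 h libraries but the difference of 0.36 ± 0.51 (edgeR adjusted p = 0.635) did not pass. At 72 h Arc fell, with a log2FC of -1.53 ± 0.53 (edgeR adjusted p = 0.0353), or 2.89-fold. The call at 72 h was lost without Ctr 72 h replicate 1, at -1.15 (edgeR adjusted p = 0.147), without SE 72 h replicate 1 or replicate 2, and without the 6 libraries with sensory ganglion genes, at -0.95 (edgeR adjusted p = 0.113), where 1 SE 72 h library remained. The call was lost also with the range of label numbers as a factor, and SE 72 h and Ctr 72 h share no range. Without SE 72 h replicate 3 the log2FC was -2.14 (edgeR adjusted p = 0.0127).

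Homer1 encodes a scaffold of the postsynaptic density that links metabotropic glutamate receptors to IP3 receptors and Shank proteins (ENSMUSG00000007617, chromosome 13, 93436143 to 93541637, plus strand). Its activity-induced short form, Homer1a, lacks the coiled coil and uncouples these links, but the counts are per gene and cannot tell the short form from the long ones. The level was 128, 82.8 and 112 CPM in Ctr 12 h, 138, 193 and 204 in Ctr 36 h and 158, 136 and 167 in Ctr 72 h. Levels after SE were 456, 825 and 1589 CPM (6 h), 369, 408 and 450.4 (12 h), 374, 311 and 1602 (24 h), 238, 163 and 400.3 (36 h) and 52.1, 104 and 201 CPM (72 h). Every SE library through 24 h lay above every control it was compared with, and at 36 and 72 h the groups overlapped. Homer1 rose by a log2FC of 2.74 ± 0.40 (edgeR adjusted p = 2.41e-05) at 6 h, 1.92 ± 0.55 (edgeR adjusted p = 0.00959) at 12 h and 2.41 ± 0.40 (edgeR adjusted p = 7.55e-05) at 24 h. The call at 12 h was lost with the range of label numbers as a factor (edgeR adjusted p = 0.0918), and no alternative brought the log2FC below 1.187. Without SE 24 h replicate 3 the value at 24 h was 1.25 (edgeR adjusted p = 0.0142). At 36 h the log2FC was 0.58 ± 0.54 (edgeR adjusted p = 0.444). At 72 h it was -0.37 ± 0.54 (edgeR adjusted p = 0.661), and without the 6 libraries with sensory ganglion genes it was 0.33 (edgeR adjusted p = 0.641). Homer1 shares 20 exon bases with a gene on the opposite strand, and the counting ignored strand.

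**Figure D2:**
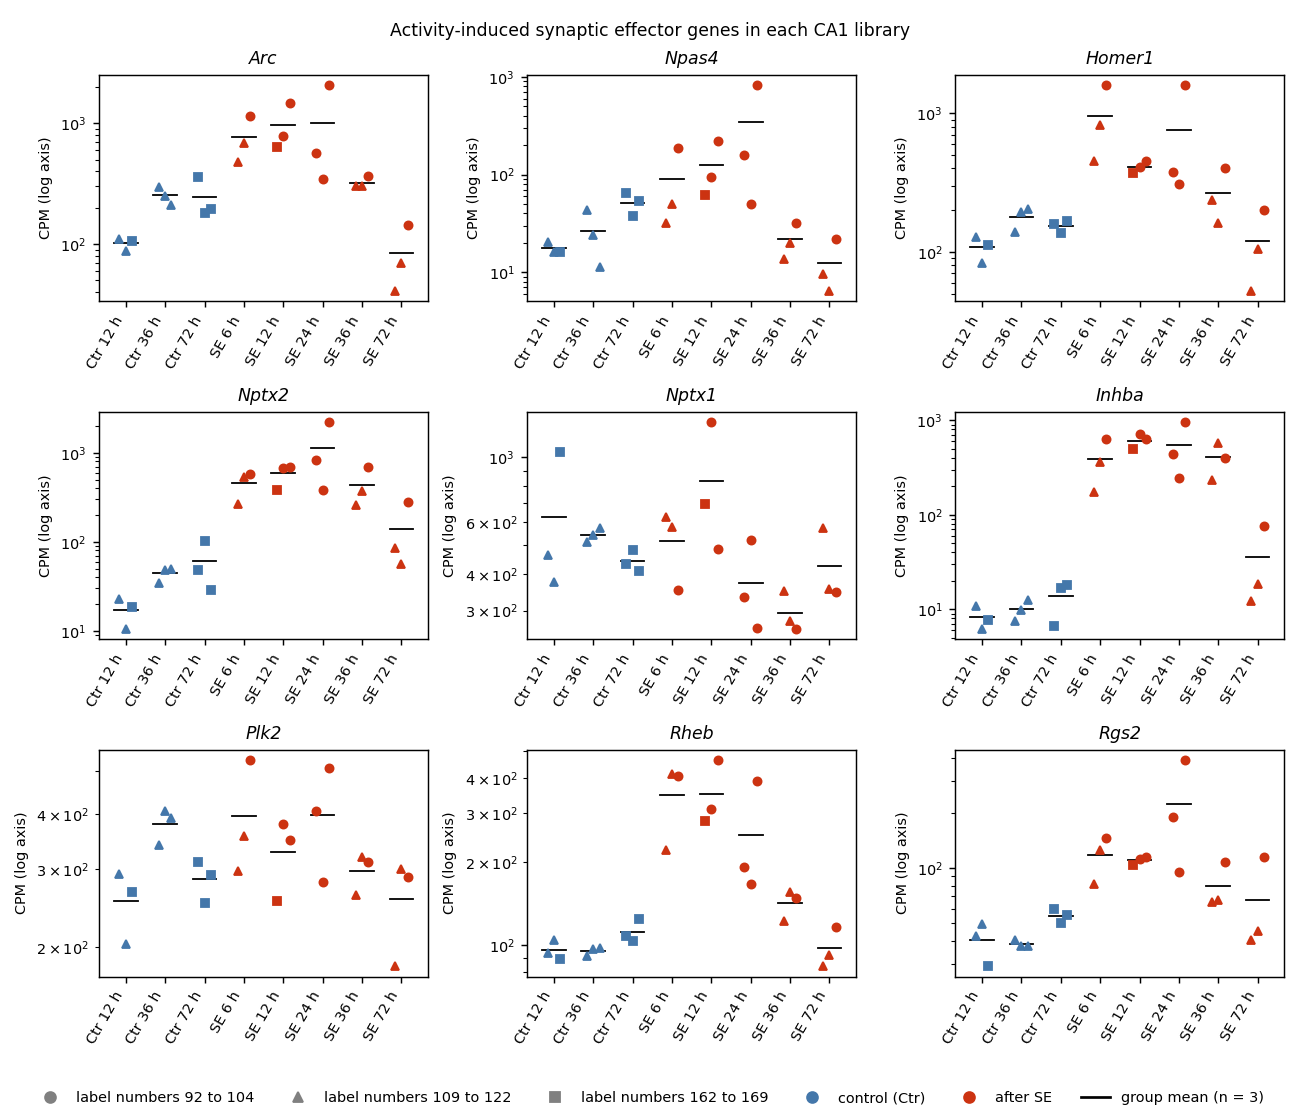
CPM of the 9 genes in each of the 24 CA1 libraries (y axis, logarithmic), by group (x axis); blue points are controls, red points are SE libraries, the marker shape gives the range of the label number and the black line is the mean of 3 libraries. SE 24 h replicate 3 is the highest library of its group in 8 of the 9 panels, and Inhba at 6 to 36 h has no SE point near the control points.

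Nptx2 encodes a secreted pentraxin that clusters AMPA receptors, mainly at excitatory synapses on interneurons (ENSMUSG00000059991, chromosome 5, 144482692 to 144500381, plus strand). Its level was 22.5, 10.6 and 18.5 CPM in Ctr 12 h, 34.4, 48.4 and 50.03 in Ctr 36 h and 48.7, 103 and 28.9 in Ctr 72 h. Following SE it reached 268, 529 and 585 CPM (6 h), 386, 679 and 695 (12 h), 830.2, 386 and 2199 (24 h), 259, 376 and 685 (36 h) and 84.9, 56.8 and 279.8 CPM (72 h). Through 36 h every SE library was above every control library, and at 72 h the groups overlapped with Ctr 72 h replicate 2 higher than SE 72 h replicates 1 and 2. Nptx2 rose by a log2FC of 3.73 ± 0.42 (edgeR adjusted p = 1.23e-06) at 6 h, 5.13 ± 0.67 (edgeR adjusted p = 9.49e-06) at 12 h, 5.02 ± 0.43 (edgeR adjusted p = 1.49e-08) at 24 h and 3.28 ± 0.61 (edgeR adjusted p = 0.000374) at 36 h. The value at 24 h was 4.13 (edgeR adjusted p = 2.69e-07) without SE 24 h replicate 3. At 72 h the log2FC was 1.42 ± 0.59 (edgeR adjusted p = 0.0798), with a 95% interval of 0.26 to 2.59. Without Ctr 72 h replicate 2, the library with the highest sensory ganglion signal, it was 1.67 (edgeR adjusted p = 0.0178), and without all 6 such libraries, which leaves SE 72 h replicate 3 alone, 2.79 (edgeR adjusted p = 0.000188). It passed also without SE 72 h replicate 2, at 1.81 (edgeR adjusted p = 0.0338). Replicate 3, with 279.8 CPM, carried the difference, and without it the log2FC was 0.39 (edgeR adjusted p = 0.636).

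Nptx1, the related secreted neuronal pentraxin that is more constantly expressed (ENSMUSG00000025582, chromosome 11, 119428472 to 119438585, minus strand), passed the test of edgeR in the fit of all libraries at no time. Its level was 462, 375 and 1044 CPM in Ctr 12 h, 514, 542 and 572 in Ctr 36 h and 432, 484 and 410.2 in Ctr 72 h. The SE values were 623, 577 and 353 CPM (6 h), 690.2, 1312 and 485 (12 h), 333, 523 and 262 (24 h), 349, 276 and 260.5 (36 h) and 572, 356 and 347 CPM (72 h). The 2 highest values, in Ctr 12 h replicate 3 and SE 12 h replicate 2, came from libraries of opposite treatment, and the groups overlapped at all times but 36 h, when all SE libraries were lower. The log2FC was -0.03 ± 0.30 (edgeR adjusted p = 0.942) at 6 h, 0.41 ± 0.36 (edgeR adjusted p = 0.395) at 12 h, -0.51 ± 0.30 (edgeR adjusted p = 0.19) at 24 h, -0.88 ± 0.36 (edgeR adjusted p = 0.0733) at 36 h and -0.05 ± 0.36 (edgeR adjusted p = 0.936) at 72 h, none past the threshold. The 95% interval at 36 h, -1.59 to -0.16, leaves a fall of the size of the threshold possible, and without Ctr 72 h replicate 2 in the fit Nptx1 passed, at -0.88 (edgeR adjusted p = 0.0247). DESeq2 called it lower at 36 h, at -0.86 (DESeq2 adjusted p = 0.0443), as did the fit of the compared groups only, at -0.87 (edgeR adjusted p = 8.92e-05). Without Ctr 12 h replicate 3 it passed at 12 h, with 0.99 (edgeR adjusted p = 0.0388), and without SE 12 h replicate 2 it was -0.09 (edgeR adjusted p = 0.869).

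Inhba encodes the inhibin beta A subunit, whose dimer is activin A, a secreted ligand of the TGF-beta family that neurons induce with activity (ENSMUSG00000041324, chromosome 13, 16186373 to 16206206, plus strand). It was the lowest of the 9 genes in all 3 control groups in CPM per kb of exon. Its level was 10.8, 6.22 and 7.69 CPM in Ctr 12 h, 7.48, 9.71 and 12.7 in Ctr 36 h and 6.58, 16.7 and 18 in Ctr 72 h. Once SE had occurred it measured 173, 365 and 638 CPM (6 h), 491, 707 and 631 (12 h), 436, 245 and 948 (24 h), 232, 580.1 and 401 (36 h) and 12.3, 18.7 and 75.6 CPM (72 h). All 12 SE libraries through 36 h were above all 9 controls, and at 72 h SE replicate 1 lay below 2 of the 3 controls. Inhba rose by a log2FC of 5.29 ± 0.45 (edgeR adjusted p = 3.38e-08) at 6 h, 6.23 ± 0.73 (edgeR adjusted p = 2.50e-06) at 12 h, 5.76 ± 0.45 (edgeR adjusted p = 5.00e-09) at 24 h and 5.35 ± 0.70 (edgeR adjusted p = 7.54e-06) at 36 h. At 24 h, leaving out SE 24 h replicate 3 gave 5.08 (edgeR adjusted p = 7.05e-08). At 72 h the log2FC was 1.55 ± 0.68 (edgeR adjusted p = 0.0961), with a 95% interval of 0.22 to 2.89, and it passed without SE 72 h replicate 1, at 2.00 (edgeR adjusted p = 0.0334), and without the 6 libraries with sensory ganglion genes, which leaves SE 72 h replicate 3 alone, at 2.90 (edgeR adjusted p = 0.00148). Replicate 3 carried this difference too, and without it the log2FC was 0.35 (edgeR adjusted p = 0.716). Inhba shares 201 exon bases with 4933412O06Rik on the opposite strand, and the counting could not part the 2 genes there by strand.

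Rheb encodes the small GTPase that activates mTOR complex 1 (ENSMUSG00000028945, chromosome 5, 25007821 to 25047622, minus strand). Its control levels were tight, 94.1, 105 and 89.1 CPM in Ctr 12 h, 91.8, 97.3 and 97.7 in Ctr 36 h and 108, 103 and 124 in Ctr 72 h. In the SE groups it read 219.97, 415 and 408 CPM (6 h), 281, 309.7 and 465 (12 h), 192, 167 and 389.9 (24 h), 122, 155 and 148 (36 h) and 84.1, 92.2 and 117 CPM (72 h). Through 36 h no SE library overlapped its controls. Rheb rose by a log2FC of 1.79 ± 0.20 (edgeR adjusted p = 1.12e-06) at 6 h, 1.87 ± 0.27 (edgeR adjusted p = 2.87e-05) at 12 h and 1.31 ± 0.20 (edgeR adjusted p = 3.71e-05) at 24 h, the narrowest intervals among the 7 genes that rose. Without SE 24 h replicate 3 the value at 24 h was 0.83 (edgeR adjusted p = 0.00205). At 36 h the log2FC was 0.57 ± 0.27 (edgeR adjusted p = 0.113) and did not pass, and at 72 h it was -0.20 ± 0.27 (edgeR adjusted p = 0.632). Rheb shares 238 exon bases with a gene on the opposite strand.

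Rgs2 encodes a regulator of G protein signalling that shortens signalling through Gq-coupled receptors (ENSMUSG00000026360, chromosome 1, 143875076 to 143879899, minus strand). Its level was 42.8, 49.6 and 29.1 CPM in Ctr 12 h, 40.4, 37.6 and 37.3 in Ctr 36 h and 59.4, 49.96 and 55.1 in Ctr 72 h. Values in SE libraries were 81.7, 125 and 147 CPM (6 h), 103, 113 and 115 (12 h), 189, 95.4 and 389.8 (24 h), 65.4, 66.9 and 108 (36 h) and 40.5, 45 and 115 CPM (72 h). No SE library through 36 h overlapped its controls, and at 72 h replicate 3 alone was above them. Rgs2 rose by a log2FC of 1.42 ± 0.31 (edgeR adjusted p = 0.00103) at 6 h, 1.45 ± 0.41 (edgeR adjusted p = 0.00782) at 12 h and 2.35 ± 0.30 (edgeR adjusted p = 3.01e-06) at 24 h. With the range of label numbers as a factor the call at 12 h was lost (edgeR adjusted p = 0.0672), and no alternative brought the log2FC below 1.013. Without SE 24 h replicate 3 the rise at 24 h was 1.69 (edgeR adjusted p = 0.000178). At 36 h the log2FC of 1.06 ± 0.40 (edgeR adjusted p = 0.0503) missed the threshold narrowly, and it passed without Ctr 72 h replicate 2 in the fit, at 1.03 (edgeR adjusted p = 0.00654), and without the 6 libraries with sensory ganglion genes, at 0.78 (edgeR adjusted p = 0.0265). In all, Rgs2 at 36 h passed under 9 of 22 alternatives. Among them were DESeq2, at 1.08 (DESeq2 adjusted p = 0.0488), the replicate block and the fit of the compared groups only. At 72 h the log2FC was 0.28 ± 0.41 (edgeR adjusted p = 0.657). Rgs2 shares 411 exon bases with a gene on the opposite strand.

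Plk2 encodes a Polo-like kinase that activity induces and that weakens overactive synapses by phosphorylating regulators of Ras and Rap (ENSMUSG00000021701, chromosome 13, 110531015 to 110537379, plus strand). Its level was 292, 202 and 267 CPM in Ctr 12 h, 341, 406 and 391 in Ctr 36 h and 310.5, 252 and 291 in Ctr 72 h. SE libraries held 297, 357 and 529.9 CPM (6 h), 255, 380.1 and 348 (12 h), 405, 279.7 and 508 (24 h), 263, 319.8 and 311 (36 h) and 181, 301 and 287 CPM (72 h). The groups overlapped at all times but 36 h, when the SE libraries were lower. The log2FC was 0.39 ± 0.18 (edgeR adjusted p = 0.0978) at 6 h, 0.37 ± 0.23 (edgeR adjusted p = 0.224) at 12 h, 0.40 ± 0.18 (edgeR adjusted p = 0.0883) at 24 h, -0.35 ± 0.23 (edgeR adjusted p = 0.27) at 36 h and -0.15 ± 0.23 (edgeR adjusted p = 0.667) at 72 h. The 95% intervals, 0.03 to 0.75 at 6 h and 0.04 to 0.76 at 24 h, reach just past the threshold but stay below the log2FC of each of the 7 called genes at those times.

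The groups were also ranked by mean CPM for each gene. For Arc, Npas4, Nptx2, Plk2 and Rgs2 the highest mean was in SE 24 h, for Nptx1, Inhba and Rheb in SE 12 h and for Homer1 in SE 6 h. Inhba, Nptx2 and Rgs2 kept the same group in first place when any 1 of its libraries was left out of the mean. For the other 6 genes the first place was lost without 1 library, SE 24 h replicate 3 for Arc, Npas4 and Plk2 (Plk2 also without replicate 1), SE 12 h replicate 2 for Nptx1, SE 12 h replicate 3 for Rheb and SE 6 h replicate 3 for Homer1. Between neighbours in these orders the libraries overlapped for most pairs. The Arc groups SE 24 h, SE 12 h and SE 6 h overlapped, and gaps lay between SE 6 h and SE 36 h, SE 36 h and Ctr 36 h, and Ctr 72 h and Ctr 12 h. For Inhba the single gap was between SE 6 h and SE 72 h, for Rheb between SE 24 h and SE 36 h, for Nptx2 between Ctr 36 h and Ctr 12 h, and for Rgs2 between Ctr 72 h and Ctr 12 h. For Npas4, Homer1, Nptx1 and Plk2 each group overlapped the next. Per kb of exon, Nptx1 was the most abundant of the 9 genes in Ctr 12 h, at 97.7 ± 56.7 CPM per kb (SD, n = 3), and Inhba the least, at 1.16 ± 0.328. In SE 12 h the order was led by Arc at 278 ± 130.1 CPM per kb and Nptx2 at 207 ± 61.3, with Nptx1 at 129 ± 67.1 and Inhba at 85.7 ± 15.4.

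Consecutive SE time points were compared with the same limit on the adjusted p and a log2FC of 1 or more in size. Between 6 and 12 h and between 12 and 24 h, 0 of 9 members changed, beside 1.33% and 3.19% of all genes, and the numbers of all genes with an unadjusted p under 0.05 were 3710 and 4466. DESeq2 called 0 members in the first comparison and 1, Nptx1, which was lower at 24 h, in the second. From 24 to 36 h Npas4 fell with a log2FC of -3.98 ± 0.86 (edgeR adjusted p = 0.0372), the single member called, beside 0.182% of all genes called lower. This fall rested on SE 24 h replicate 3, without which it was -2.21 (edgeR adjusted p = 0.252), and leaving out any 1 of the SE 36 h libraries ended the call. DESeq2 called 2 members, Npas4 and Rgs2, and without the 6 libraries with sensory ganglion genes 5 members fell (Arc, Npas4, Homer1, Nptx2 and Rgs2), Npas4 with -3.48 (edgeR adjusted p = 0.0048). From 36 to 72 h Arc, with -1.95 ± 0.53 (edgeR adjusted p = 0.0231), and Inhba, with -3.48 ± 0.63 (edgeR adjusted p = 0.00166), fell, beside 1.06% of all genes called lower. The Arc call was lost without SE 36 h replicate 2 or 3 or SE 72 h replicate 1 or 2, and without the 6 libraries with sensory ganglion genes it was -1.07 (edgeR adjusted p = 0.131). Inhba kept its call in every fit that left out 1 library, with -4.72 (edgeR adjusted p = 0.000246) without SE 72 h replicate 3, and was at -2.37 (edgeR adjusted p = 0.0179) without the 6 libraries.

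Whether the SE effect itself differed between times was tested by interaction contrasts for the 3 times that have their own controls. The SE effect at 72 h was smaller than at 12 h for 6 of 9 members, beside 6.25% of all genes called lower. The difference of log2FC was -4.77 ± 0.76 (edgeR adjusted p = 0.00031) for Arc and -4.83 ± 1.18 (edgeR adjusted p = 0.00675) for Npas4. It was -4.68 ± 0.94 (edgeR adjusted p = 0.0018) for Inhba, -3.71 ± 0.84 (edgeR adjusted p = 0.0042) for Nptx2, -2.29 ± 0.77 (edgeR adjusted p = 0.039) for Homer1 and -2.07 ± 0.38 (edgeR adjusted p = 0.000994) for Rheb. For Rgs2 it was -1.17 ± 0.57 (edgeR adjusted p = 0.147), for Plk2 -0.52 ± 0.33 (edgeR adjusted p = 0.268) and for Nptx1 -0.46 ± 0.51 (edgeR adjusted p = 0.555), none of them past the threshold. Without the 6 libraries with sensory ganglion genes the same 6 members were called, with -4.36 for Arc, -4.49 for Npas4, -3.57 for Inhba, -2.64 for Nptx2, -1.74 for Homer1 and -1.95 for Rheb (edgeR adjusted p of 0.000197 to 0.037). Without SE 72 h replicate 3 the differences were larger, to -5.89 for Inhba and -4.75 for Nptx2. The Homer1 difference lost its call in 9 of the 12 fits that left out 1 library. Between 36 and 12 h 1 member differed, Arc, with -2.88 ± 0.73 (edgeR adjusted p = 0.0355), beside 1.38% of genes called lower, and this call was lost in 10 of the 12 fits that left out 1 of the libraries compared. Without the 6 libraries with sensory ganglion genes 6 members differed (Arc, Npas4, Homer1, Nptx2, Plk2 and Rheb), Arc with -3.15 (edgeR adjusted p = 0.000796), and DESeq2 called 2, Arc and Rheb. Leaving out these libraries also raised the calls over all genes in this contrast, in either direction, from 609 to 1219. Between 72 and 36 h 1 member differed, Inhba, with -3.80 ± 0.93 (edgeR adjusted p = 0.0223), beside 1.12% of genes called lower, and this call was lost when any 1 of 4 libraries was left out (Ctr 36 h replicates 1 and 2, SE 36 h replicate 2 and SE 72 h replicate 2) and without the 6 libraries with sensory ganglion genes, at -2.41 (edgeR adjusted p = 0.108). The median of all genes in the 2 contrasts with 72 h was 0.15 and 0.12.

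Among the controls, edgeR called 0 of 9 members between any pair of groups, and DESeq2 also called 0. Of all genes, edgeR called 0 between 36 and 12 h (0%; 654 had an unadjusted p under 0.05), 354 between 72 and 36 h (1.95%) and 190 between 72 and 12 h (1.05%). All the same, every Ctr 36 h library was above every Ctr 12 h library for 4 members (Arc, Homer1, Nptx2 and Plk2), beside 8.08% of all genes. Every Ctr 72 h library was so for 5 (Arc, Npas4, Homer1, Nptx2 and Rgs2), beside 6.01% of all genes. For Arc the means (± SD, n = 3) were 101 ± 11.5, 253 ± 44 and 245 ± 98.7 CPM in Ctr 12 h, Ctr 36 h and Ctr 72 h. For Nptx2 they were 17.2 ± 6.08, 44.3 ± 8.6 and 60.3 ± 38.6 CPM. The fold changes at 12 h are therefore taken against the lowest control means of Arc and Nptx2.

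Within each SE group replicate 3 was the highest library for most of the members. SE 24 h replicate 3 was the highest library of its group for 8 of 9 members, beside 36.3% of all genes tested that were highest there. SE 6 h replicate 3 was highest for 7 members (35.8% of genes), SE 12 h replicate 3 for 6 (35.4%), SE 36 h replicate 3 for 5 (32.9%) and SE 72 h replicate 3 for 7 (37.5%). Nptx1 was highest in another library in each of these groups and lowest in replicate 3 of all 5 SE groups. The ratio of the highest to the lowest library in SE 24 h was 16.7 for Npas4, 6.05 for Arc, 5.69 for Nptx2 and 5.15 for Homer1. In Ctr 12 h the same ratio was 1.25 for Npas4, 1.24 for Arc, 2.13 for Nptx2 and 1.55 for Homer1. All these replicate 3 libraries have label numbers in the range 92 to 104, which holds no control, and the part of that range in the result was not tested beyond the following values. With the range as a factor, the 7 members called at 24 h were called again, with smaller values, Npas4 at 2.10 (edgeR adjusted p = 0.0458), and 4 of 9 members were higher at 12 h (Arc, Nptx2, Inhba and Rheb). In the 11 libraries with numbers 109 to 122 alone, Arc, Homer1, Nptx2, Inhba, Rheb and Rgs2 were higher at 6 h, and Npas4 was not, at 0.88 (edgeR adjusted p = 0.102). At 36 h in these libraries Nptx2, Inhba and Rgs2 were higher and Nptx1 lower, with 0.78 (edgeR adjusted p = 0.000606) for Rgs2 and -0.80 (edgeR adjusted p = 0.00532) for Nptx1.

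**Figure D3:**
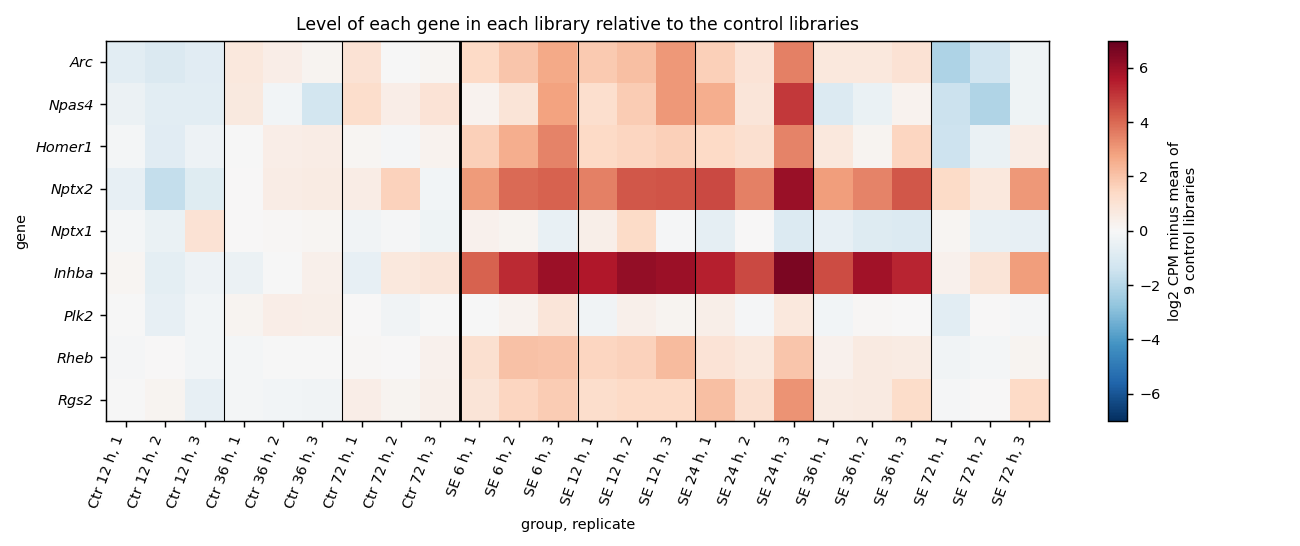
Level of the 9 genes (rows) in the 24 libraries (columns, group and replicate), as log2 CPM minus the mean over the 9 control libraries; red is above and blue below the control mean, and the thick line parts controls from SE libraries. Columns of SE 6 h, 12 h and 24 h are red for 7 rows, replicate 3 most strongly at 24 h, whereas the Nptx1 and Plk2 rows stay pale and Arc and Npas4 turn blue at 72 h.

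Markers of the cells in the tissue were measured beside these genes, and in bulk tissue fewer cells of a type and less RNA per cell cannot be told apart. Neuronal and CA1 markers were present in every library, and Snap25 and Mpped1 had the highest mean CPM of their lists over the 24 libraries. Of 8 neuronal markers, 0 passed the test at 6 h. At 12, 24 and 36 h 1 rose, the neurofilament gene Nefm, by 1.36 at 12 h and 2.23 at 36 h, and 1 fell, the synaptic vesicle gene Syt1, with a log2FC of -1.01, -0.73 and -0.86. At 72 h 2 fell, Snap25 and Syt1, with a log2FC of -0.73 and -0.70. Their sum was 6785, 8950 and 7178 CPM in Ctr 72 h and 5762, 5239.5 and 4677 in SE 72 h. Of 4 CA1 pyramidal markers (Wfs1, Fibcd1, Mpped1 and Pou3f1), 1 fell at 24 h, 3 at 36 h and 2 at 72 h, when Fibcd1 was at -1.45 and Mpped1 at -1.01. Wfs1 passed at no time and was at 1.13 at 36 h, when all its SE libraries were above the controls, and at 0.51 at 72 h. The fall of Arc at 72 h came at the time of the falls of Fibcd1 and Mpped1, and their part in it was not tested. Of 6 interneuron markers, Sst rose at 6, 12 and 24 h, by 1.40, 1.48 and 0.92, and Slc32a1 and Vip fell at 72 h. Of 5 dentate granule cell markers, 0 passed at 6 and 12 h, Tdo2 fell at 24 h with a log2FC of -2.13, Lct rose by 2.43 at 36 h, and Prox1 and C1ql2 rose by 3.05 and 4.02 at 72 h. At 72 h the sum of the list was 235 CPM in SE 72 h replicate 1 and 18.5 and 25.6 in replicates 2 and 3. In Ctr 72 h the sum was 15.95, 5.8 and 11.6, so every SE library lay above these controls, replicate 1 by far the most. It was 110.04 in Ctr 12 h replicate 3, against 5.8 to 53.4 in the other control libraries. It was also high in SE 12 h replicates 1 and 3, at 92.3 and 96.5 CPM, and in SE 36 h replicates 1 and 2, at 94.4 and 100.3, and its part in the results at these times was not tested.

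Markers of glia and vessels moved as well. Of 8 microglial markers, 0, 0, 3, 5 and 8 rose and 5, 2, 1, 1 and 0 fell at the 5 times in order. Their sum at 72 h was 1249.7, 1696 and 1814 CPM against 400.03, 331 and 306 in the controls. Of 8 astrocyte markers, Gfap rose at all 5 times, with a log2FC of 2.57 at 6 h and 4.31 at 36 h, and Aqp4 rose from 12 h on. Others of the list fell, Gja1 at 12 h and 4 genes (Slc1a2, Slc1a3, Gja1 and Aldoc) at 24 and 36 h, so that the list went both ways. Of 6 vascular markers, 3, 3, 4, 2 and 2 rose at the 5 times in order, with medians of 0.50, 0.62, 0.99, 0.59 and 0.33, and the pericyte gene Rgs5 fell at 6 and 12 h. The endothelial cadherin gene Cdh5 rose at all 5 times, by 1.99 at 6 h and 1.56 at 24 h. Of 6 oligodendrocyte markers, Mag and Mobp rose at 6 and 24 h, by 0.77 and 0.81 and by 0.99 and 1.03, Cnp fell at 12 h and Mag rose at 72 h. The vascular rises at 6, 12 and 24 h came at the times when 7 of the 9 genes rose, and their part in those changes was not tested. Of 5 infiltrating leukocyte markers 3 could be tested, of which Ccr2 rose at 6, 36 and 72 h and S100a8 and S100a9 at 12 h. Of 3 CA3 pyramidal markers tested 0 passed at any time, and of 2 choroid plexus markers Kl fell at 12 h. The sum of the CA3 list was 136 CPM in Ctr 12 h replicate 3, of which Grik4 made up 123, against 32.9 to 82.1 in the other libraries. That library also had the highest Nptx1 level of the controls, and the part of CA3 tissue in this was not tested. Of 6 sensory ganglion markers, Calca, Trpv1 and Avil rose at 12 h and Calca at 36 h. Their part in the changes of the 9 genes was not tested, beyond the values given without the 6 libraries: in that fit the 7 genes called at 12 h and 24 h were each called again, and at 6 h Npas4 was at 0.42 (edgeR adjusted p = 0.422).

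The genes around the members were taken from lists of their known partners and pathways, whose median log2FC is read beside that of all genes (0.06, 0.01, 0.04, 0.00 and 0.10 at the 5 times). Among 8 other immediate early transcription factors, which respond directly to activity, 7, 6, 7, 0 and 0 rose in the order of the times, and 1 fell at 72 h. Their median log2FC was 2.13, 2.42, 1.82, 0.23 and -0.85. Fosb rose by 4.72 at 6 h, 4.35 at 12 h and 3.35 at 24 h, Fos by 3.30 and 3.66 at 6 and 24 h, and Egr2 by 3.91 at 12 h. The fall at 72 h was that of Nr4a1, at -1.35. Among 8 other activity-induced effectors, 8, 8, 7, 7 and 0 rose, with a median of 2.71, 2.86, 2.66, 1.97 and 0.31. Pcsk1, a protease that processes neuropeptide precursors, rose by 3.56 at 6 h, and Scg2, a secretory granule protein, by 3.29 at 6 h and 3.36 at 12 h. Ptgs2, the inducible cyclooxygenase, rose by 3.69 at 12 h, 5.11 at 24 h and 4.36 at 36 h, while Bdnf, a neurotrophin gene, rose by 3.24 at 24 h and Vgf by 2.87 at 36 h. Thus at 36 h 7 of 8 effectors were called but 0 of 8 transcription factors, and of the 9 members Nptx2 and Inhba were called. The difference between these lists was not tested.

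In the lists around Arc, Homer1 and the pentraxins some genes fell at each of the 5 times. Their counts are read beside the 6.2%, 11.4%, 9.24%, 8.95% and 4.15% of all genes called lower in order of time. Of 7 Arc partners and genes of AMPA receptor endocytosis, 1, 1, 1, 0 and 1 rose and 1, 3, 1, 3 and 2 fell at the 5 times, with medians of 0.00, -0.34, -0.11, -0.54 and -0.16. Wasf1, an actin regulator that binds Arc, fell at all 5 times, with log2FC values of -0.88, -1.03, -1.21, -1.73 and -0.72. Picalm, a clathrin adaptor, rose by 0.84 at 6 h and 0.77 at 24 h, Sh3gl3, an endophilin, fell with -0.99 at 12 h, the TARP gene Cacng2 was at -0.84 at 36 h and the dynamin gene Dnm2 rose by 0.74 at 72 h. Of 8 Homer family genes and ligands, 0 rose at any time and 2, 3, 4, 4 and 2 fell, with medians of -0.31, -0.59, -0.42, -0.79 and -0.52. The metabotropic glutamate receptor gene Grm5 fell with a log2FC of -0.71 at 6 h and -1.32 at 12 h. Homer2 fell with -1.24, -1.71 and -1.02 at 24, 36 and 72 h and the IP3 receptor Itpr1 with -1.27 and -0.85 at 36 and 72 h. The scaffolds Shank1, Shank2 and Shank3 passed at no time against controls. Of 6 genes for the pentraxin receptor, its sheddase and AMPA receptor subunits, 0, 0, 1, 1 and 1 rose and 1, 4, 4, 4 and 3 fell, with medians of -0.40, -0.87, -0.78, -0.81 and -0.50. Gria1 fell with -0.94, -1.13, -0.85 and -1.08 at 6 to 36 h, Gria2 with -1.03 at 12 h and Gria3 with -1.23 at 36 h. Gria4 fell with -0.85 at 24 h and -0.79 at 72 h. Adam17, a sheddase, rose by 1.30 at 72 h, and the pentraxin receptor Nptxr was lower at 72 h, at -0.66. Of 5 NPAS and ARNT genes, with which Npas4 pairs or shares its fold, 0 passed through 24 h. Npas2 fell at 36 h with -1.14, Npas3 rose at 72 h by 0.72, the dimer partners Arnt and Arnt2 passed at no time, and the medians were -0.06, -0.02, -0.03, -0.26 and -0.10.

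Single genes of activin, mTORC1 and G protein signalling rose, also at times when Inhba, Rheb or Rgs2 was not called. The counts are read beside the shares of all genes at the 5 times, 12.7% to 15.8% called higher and 4.15% to 11.4% called lower. Of 14 activin pathway genes, 3, 5, 5, 5 and 1 rose and 0, 1, 1, 1 and 0 fell, with medians of 0.21, 0.27, 0.49, 0.43 and 0.25. The receptor gene Acvr1 rose at all 5 times, to 0.85 at 72 h. The inhibitory Smad7 rose by 1.70 at 6 h and 2.21 at 12 h, the antagonist Fst by 1.18, 1.64 and 2.17 at 6, 24 and 36 h, and the antagonist Fstl3 by 2.47 and 1.75 at 12 and 24 h. The type I receptor Acvr1c rose by 2.18 at 36 h, when Inhbb, the other beta subunit, fell with -1.77. Of 12 genes of Rheb and mTORC1 signalling, 1, 2, 2, 1 and 1 rose and 1, 0, 1, 0 and 0 fell, with medians of -0.12, -0.18, 0.02, 0.04 and -0.06. Eif4ebp1, a repressor of translation that mTORC1 inactivates, rose at all 5 times, by 1.68, 2.01, 3.23, 2.97 and 1.86. Tbc1d7, of the complex that inhibits Rheb, fell with -0.89 at 6 h, Akt1s1 rose by 0.82 at 12 h and Rhebl1 fell with -0.71 at 24 h, while Tsc2 and Mtor passed at no time. Of 10 RGS and Gq genes, 2, 3, 4, 2 and 1 rose and 0, 1, 0, 2 and 0 fell, with medians of -0.06, 0.00, 0.01, 0.31 and -0.10. Rgs16 rose by 2.07, 1.78 and 1.86 at 6, 12 and 24 h, Rgs4 by 1.5, 1.82, 1.55 and 1.40 at 6 to 36 h, and Rgs10, which microglia express, by 1.17 at 72 h. Rgs14 fell with -1.69 at 36 h. Of 8 Polo-like kinase genes and Plk2 spine substrates, 1, 1, 0, 0 and 3 rose and 0, 1, 1, 4 and 0 fell, with medians of -0.07, -0.28, -0.38, -0.31 and -0.10. Plk3 rose by 1.92 at 6 h and 1.96 at 12 h, and Plk5 and Plk1 by 3.30 and 2.38 at 72 h, whereas Rapgef2 fell with -0.80, -0.83 and -1.06 at 12, 24 and 36 h and Rasgrf1 with -0.84 at 36 h.

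**Figure D4:**
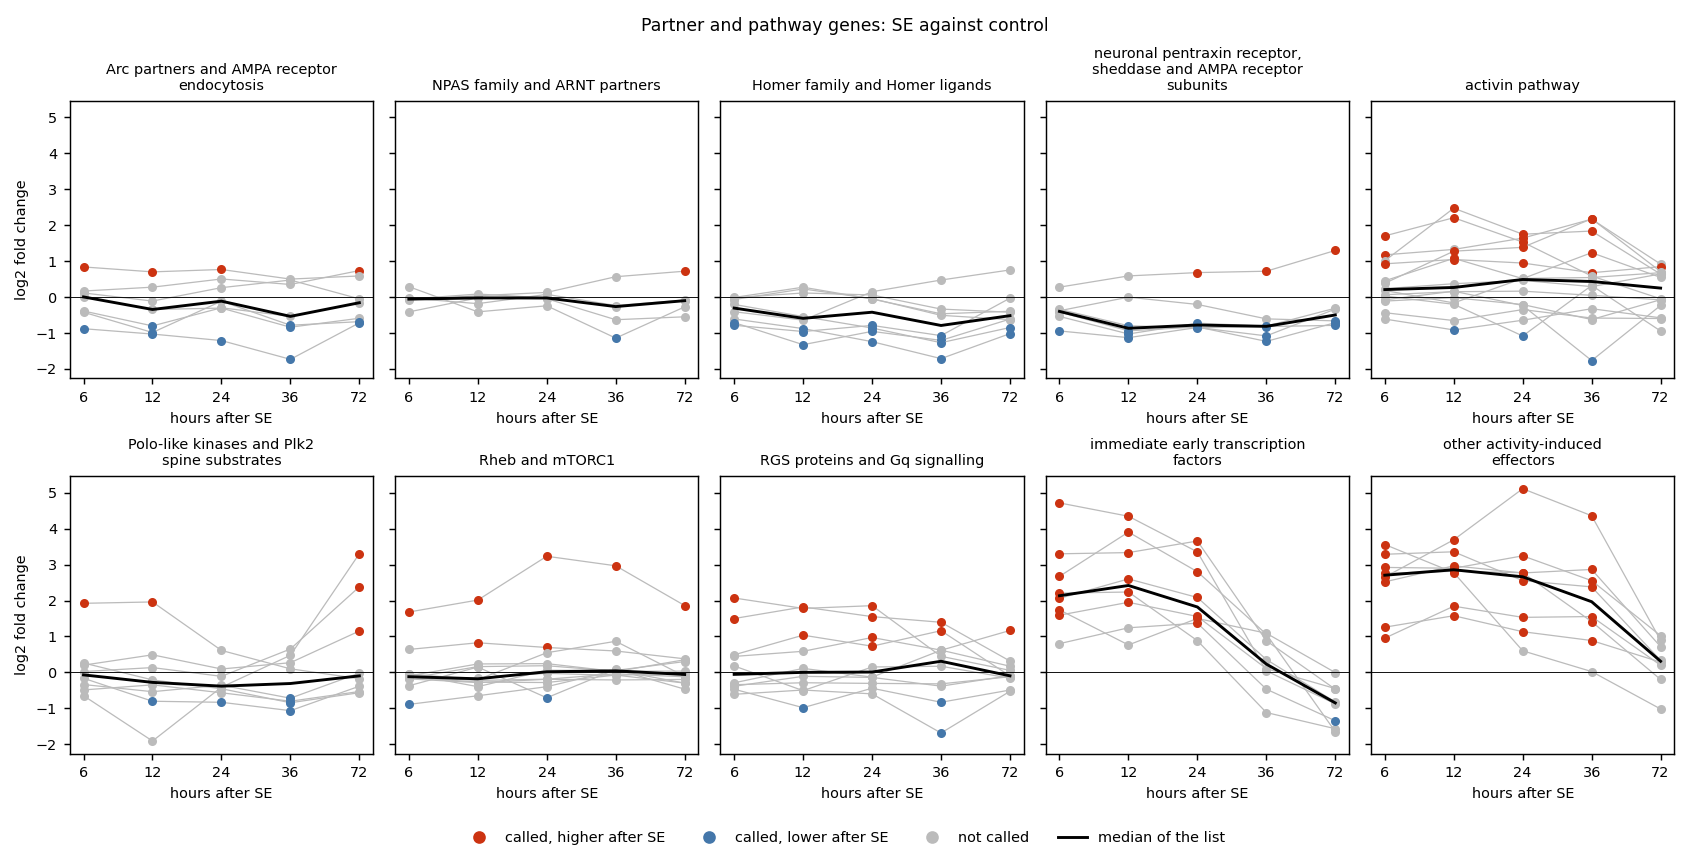
Log2 fold change of each gene of 10 partner and pathway lists between SE and control libraries (y axis) at 5 times after SE (x axis, hours); red points rose, blue points fell, grey points did not pass the test and the black line is the median of the list. The immediate early transcription factors have a median of 2.13 at 6 h and -0.85 at 72 h, the other effectors still have one of 1.97 at 36 h, and the medians of the Homer and pentraxin lists lie below 0 at all times.

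The genes whose group means followed each member most closely were ranked by Pearson's r over the 8 group means of log2 CPM, among 13749 genes whose mean log2 CPM was 1 or more. With 8 points that share libraries and depth, many genes reach a high r, so the names are a description. Inhba was followed by Cemip2 (r = 0.997), Vgf (r = 0.996) and Bdnf (r = 0.992), both of the latter on the effector list. Arc was followed by Mex3d (r = 0.980), Egr2 (r = 0.979) and Gpr45 (r = 0.977), and Npas4 by Fastkd5 (r = 0.982), Nr4a1 (r = 0.963) and Ddx39b (r = 0.952). Homer1 was followed by Phf13 (r = 0.989), Ets2 (r = 0.977) and Tchh (r = 0.976), and Nptx2 by Rara (r = 0.988), Pvr (r = 0.987) and Klf6 (r = 0.985). Rheb was followed by Taf5l (r = 0.997), Gm13889 (r = 0.995) and Saraf (r = 0.992), and Rgs2 by Dph3 (r = 0.989), Polr1c (r = 0.982) and Polr1d (r = 0.981). The members that were not called had Tor1b (r = 0.971), Mgat5b (r = 0.947) and Tmem87b (r = 0.942) nearest to Nptx1 and Bhlhe40 (r = 0.939), Ccdc88c (r = 0.923) and Ccdc85b (r = 0.910) nearest to Plk2.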

How the data were processed

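The deposited values are unnormalised read counts for each gene. For these the authors used Trim Galore 0.6.6, STAR 2.7.8a on GRCm39, SAMtools 1.10 and HTSeq 0.13.5 without regard to strand, lanes merged. Versions and build come from the submitters' processing notes. The 9 members and all lists were chosen with earlier results of these data known. Columns were assigned to samples, and samples to the 8 groups of 3 libraries, by the labels.

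From the counts, CPM with TMM factors and log2 fold changes were computed here in R 4.3.3 with edgeR 4.0.16. Genes were kept by filterByExpr over the 8 groups, and 1 quasi-likelihood fit of all 24 libraries held the group and 1 RUVr factor of unwanted variation, a step of the study's methods that was rewritten here from the deviance residuals of a first fit. The RUVr factor was 0.81 in Ctr 72 h replicate 2 and -0.39 and -0.34 in replicates 1 and 3 of that group. Elsewhere its largest size was 0.135, in SE 36 h replicate 3. It therefore mostly described differences within Ctr 72 h. Fits that left out libraries estimated the factor anew, so without Ctr 72 h replicate 2 the factor changed as well. P-values were adjusted by Benjamini-Hochberg over 18153 genes. A call needed an adjusted p no higher than 0.05 and a log2FC of 0.66 or more in size (1 between SE times). SE 6 h and 24 h were set against the mean of the 3 control groups. Intervals are 1.96 standard errors. Library totals of 2663936 to 30133731 counts set the precision.

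Named genes are the 9 members, the 2 largest called genes of each list in each comparison of SE with control, direct partners of a member, and the 3 genes nearest to each member over the group means. Alternatives were DESeq2 1.42.0, limma-voom (limma 3.58.1), other scaling, filters, thresholds and library sets, a replicate block and leaving out each library. The scripts were tested on simulated data, with 50 genes changed at each size between SE 12 h and Ctr 12 h. The share called was 16% at a log2FC of 0.66, 34% at 1, 52% at 1.5 and 80% at 3. A gene that was not called may therefore still have changed. Promoters came from GRCm39 with the annotation of GENCODE M39. Exon lengths per kb are the union of a gene's exons there. Every pair of replicates differed by more than sampling noise (chi-square per degree of freedom of at least 4.77). Some items that the rule for named genes or the promoter search would give are not reported here.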

Additional observations from a re-analysis of the deposited data

Results flagged for a closer look

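For 6 of the 9 genes the SE effect differed between times by a test of the difference itself, edgeR's quasi-likelihood test on the interaction contrast with Benjamini-Hochberg adjustment over all genes. The SE effect was lower at 72 h than at 12 h, on the log2 scale, by -4.77 ± 0.76 (s.e.) for Arc, -4.83 ± 1.18 for Npas4, -4.68 ± 0.94 for Inhba, -3.71 ± 0.84 for Nptx2, -2.29 ± 0.77 for Homer1 and -2.07 ± 0.38 for Rheb. Inhba also differed between 72 and 36 h, by -3.80 ± 0.93, and Arc between 36 and 12 h, by -2.88 ± 0.73. Both of these calls were lost in fits that left out 1 library, that of Arc in most of them. The Homer1 difference between 72 and 12 h was also lost in most such fits. Of all genes, 6.25% (72 against 12 h), 1.12% (72 against 36 h) and 1.38% (36 against 12 h) were called lower. For Arc, Npas4, Inhba, Nptx2 and Homer1 the 12 h effect was taken against the control group with the lowest mean level, and the part of that in the differences was not tested.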

How the results depend on the processing

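Of 282 counts of members called under an alternative, 223 lay within 1.5 times the reported count and 59 did not. The reported counts are 7, 7, 7, 2 and 1 for the 5 comparisons with controls in order of time, 0, 0, 1 and 2 between consecutive SE times, and 1, 6 and 1 for the effects at 36 against 12 h, 72 against 12 h and 72 against 36 h. At 36 h, DESeq2, scaling by library total only, a fit of the compared groups only and the label numbers 109 to 122 only (an alternative chosen after seeing the data) each gave 4. At 72 h, the replicate block and the fit of the compared groups only gave 2, Arc and Npas4, and the range of label numbers as a factor 0. At 12 h this factor gave 4. From 24 to 36 h, leaving out the RUVr factor, limma-voom and the label range gave 0 and DESeq2 2, Npas4 and Rgs2. From 12 to 24 h, DESeq2 and thinning to the smallest library gave 1, Nptx1. For 36 against 12 h, DESeq2, library total only and the replicate block gave 2, and for 72 against 36 h limma-voom gave 0. Without the 6 libraries with sensory ganglion genes, also chosen after seeing the data and with a lone SE 72 h library that is assumed to vary like the others, 2 members were called at 72 h, Nptx2 and Inhba, both higher, 1 from 6 to 12 h, Inhba, 1 from 12 to 24 h, 5 from 24 to 36 h and 1 from 36 to 72 h, and 6 and 0 for the effects at 36 against 12 h and 72 against 36 h. With 1 library left out each time the counts were 6 to 7 (6 h), 6 to 8 (12 h), 7 (24 h), 2 to 4 (36 h) and 0 to 3 (72 h), 0 from 6 to 12 h, 0 to 2, 0 to 3 and 1 to 4 for the later steps, and 0 to 3, 5 to 7 and 0 to 3 for the differences of effects. The cause of these changes was not tested.

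The call of Npas4 at 6 h, a log2FC of 1.68, was lost under limma-voom (1.34), the label range (0.80), the replicate block (1.24), without the ganglion libraries (0.42) and in the label numbers 109 to 122 (0.88). Changes of sign were seen for log2FC values that had not passed the test. Nptx1 at 6 h became 0.014 with at least 10 counts in every library, 0.25 with the label range, 0.22 without the ganglion libraries and 0.34 in the label numbers 109 to 122. At 72 h Nptx1 became 0.003 with library totals and 0.48 with the label range, Rgs2 -0.078 with the label range, and without the ganglion libraries Homer1 became 0.33 and Rheb 0.023. Leaving out 1 library moved Nptx1 from -0.19 to 0.18 at 6 h, (12 h) -0.092 to 0.989 and (72 h) -0.325 to 0.075, Npas4 from -0.65 to 0.31 at 36 h, Plk2 from -0.29 to 0.049 at 72 h and Rgs2 from -0.36 to 0.55 at 72 h. Counts over all genes ranged widely where few genes were called: from 24 to 36 h 19 without the RUVr factor and 289 with DESeq2, against 99, and between Ctr 72 h and Ctr 36 h 0 without the ganglion libraries and 534 with DESeq2, against 354. Of 282 such counts 79 lay beyond 1.5 times the reported one. The correlations of the deviations of same-numbered SE and control libraries ran from -0.201 to 0.181. They were over 0.1 for 4 of 9 libraries and above those with each other number for 5 of 9, so the numbers were not taken as pairs, which would need a value over 0.1 for each. Depth was lowest in the control group at 72 h, where totals begin at 2663936 counts.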
